A study of Mus musculus with 12 samples.

Results

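Interferon response genes were followed in granule cell progenitors, which divide in the external germinal layer of the young cerebellum, with and without an activated hedgehog signal. The genes were chosen by symbol: Ifit1, Ifit3, Isg15, Stat2, Irf7, Irf9, Oas1a, Usp18 and Bst2, with every probe set whose platform annotation gives exactly that symbol, and the brightest of them by mean over the 12 arrays as the main one. Of the 9 symbols, 8 had a probe set of that symbol alone, 9 probe sets in all, out of 18194 genes and 45101 probe sets on the array. The 1 probe set annotated to Isg15 also names a second gene, so Isg15 has no value of its own here. Of the 8 genes, Stat2 had 2 probe sets and the others 1 each.

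The samples were progenitors from mice at postnatal day 8, of mixed C57BL/6 and Swiss Webster background, in 4 groups of 3 arrays: SmoM2 hemisphere, SmoM2 vermis, wild type hemisphere and wild type vermis. SmoM2 mice were Atoh1-CreER/+; R26LSL-SmoM2-YFP, in which a tamoxifen-inducible Cre driven by Atoh1 switches on an activated Smoothened fused to YFP, and they received 200 µg of tamoxifen per g at postnatal day 2. The sources used here do not say whether wild type mice received tamoxifen or carried any of these alleles. Cells were isolated on a Percoll gradient, which enriches progenitors and does not sort them, and each array held a pool of 5 mice. Nothing states whether the hemisphere and vermis pools of 1 number came from the same mice, so p-values measure the spread between these pools. After subtraction of group means, same-numbered hemisphere and vermis arrays correlated at 0.142 to 0.275 in SmoM2 and 0.337 to 0.527 in wild type. The regions are thus not independent repeats, and the main model does not pair them.

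Interferons are secreted proteins that bind paired receptors and signal through JAK kinases. Under type I interferon, Stat2 and Irf9 act in the ISGF3 complex, which binds the interferon-stimulated response element (ISRE) in front of its target genes. Irf7 is itself a target and amplifies interferon production. Ifit1 and Ifit3 act against viral RNA and its translation, Oas1a makes the oligoadenylate that activates RNase L, Bst2 (tetherin) holds budding virus at the cell surface, and Usp18 removes Isg15 from proteins and dampens the receptor. In the brain, microglia and vascular cells as well as neural cells can express these genes.

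Promoter sequences are shown because the ISRE is the site through which ISGF3 acts on its target genes. RefSeq promoters (GRCm38.p6, 250 bases before to 50 after the start) were found for 7 of the 8 genes, Usp18 being the one not in the table. The ISRE core searched was GAAA, any 2 bases and GAAA, on both strands. It was present in 5 of 7 (Ifit1, Ifit3, Stat2, Oas1a and Bst2) and in neither Irf7 nor Irf9, against 3.44% of all 32851 promoters of that length. Each sequence below runs 5′ to 3′ on the strand of the gene, with the ISRE core (or its complement) in capitals.
Ifit1, chr19:34640794-34640823, plus strand, 85 bases before the start: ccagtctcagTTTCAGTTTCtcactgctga
Ifit3, chr19:34583397-34583426, plus strand, 122 bases before the start: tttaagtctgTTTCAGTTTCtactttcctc
Stat2, chr10:128270266-128270295, plus strand, 222 bases before the start: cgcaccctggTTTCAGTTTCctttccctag
Bst2, chr8:71537577-71537606, minus strand, 124 bases before the start: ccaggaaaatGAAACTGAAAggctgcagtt
Oas1a, chr5:120907526-120907775, minus strand, the 250 bases before the start, with a pair of overlapping ISRE cores in capitals: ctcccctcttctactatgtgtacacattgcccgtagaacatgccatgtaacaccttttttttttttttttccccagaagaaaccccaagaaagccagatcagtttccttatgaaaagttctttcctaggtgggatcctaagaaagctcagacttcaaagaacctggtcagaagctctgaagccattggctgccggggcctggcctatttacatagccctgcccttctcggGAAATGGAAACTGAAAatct
Ifit1 and Ifit3 each had 2 matches, of which 1 is printed, and Bst2 had a pair of overlapping matches, like Oas1a. The interferon gamma activated site (GAS) core TTCNNNGAA was present in Oas1a and Bst2, against 8.3% of all promoters, and in Bst2 it overlaps the ISRE core. A match is a description of letters and not a measured site.

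Values are log2 intensities normalized together across arrays, so a difference of 1 is a 2-fold difference. The median of an array was 4.81 to 4.87, its lower quartile 3.24 to 3.42 and its upper quartile 6.90 to 7.10. Pearson's r over probe sets was 0.988 to 0.996 within a group and 0.979 to 0.989 across genotypes, as a description. The genotype was visible in hedgehog targets: Gli1, a transcription factor that the pathway induces, was 1.68 higher in SmoM2 hemisphere than in wild type hemisphere and 1.503 higher in SmoM2 vermis than in wild type vermis (limma, adjusted p = 2.52e-06 and 7.84e-06). Of the progenitor markers, Atoh1 was 0.82 higher in SmoM2 hemisphere and 0.85 higher in SmoM2 vermis than in wild type, and Zic1 lay between 12.7 and 13.1 on every array, with SmoM2 minus wild type differences of -0.24 and -0.14 that did not pass. Barhl1 fell by 0.97 in the hemisphere and differed by -0.79 in the vermis (limma, adjusted p = 0.0302 and 0.0621). Of 12 progenitor markers, hemisphere samples had 5 higher and 2 lower in SmoM2 by the test, while vermis samples had 5 higher and 1 lower. The Actb 3′ minus 5′ probe set difference, a sign of RNA integrity and labelling, averaged 0.98 in SmoM2 hemisphere and 0.96 in SmoM2 vermis, against 0.64 in wild type hemisphere and 0.89 in wild type vermis. The dap labelling control averaged 10.4 in both SmoM2 groups, against 8.70 in wild type hemisphere (lowest array 7.77) and 10.2 in wild type vermis, and the part of this in the hemisphere comparison was not tested. The mean of 3 Y-linked genes was 5.51 and 5.57 in SmoM2 hemisphere and vermis, against 6.15 and 6.22 in wild type, and the part of the pools' sex makeup in the results was not tested. Markers of other cell types were also present.

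Markers of other cells moved with the genotype, and the values are given before the results that they accompany. Of 16 measured microglia and macrophage markers, 11 fell in SmoM2 hemisphere and 12 in SmoM2 vermis, and 0 rose. Their summed linear level was 811 to 1069 in SmoM2 hemisphere and 888 to 1265 in SmoM2 vermis, against 1718 to 2035 in wild type hemisphere and 1831 to 1920 in wild type vermis, with no overlap in either region. The defining markers Cx3cr1, P2ry12 and C1qa were above the array medians in every group, and none was near 0. Of 12 endothelial markers, 1 fell in SmoM2 hemisphere and 4 in SmoM2 vermis, with summed levels of 1027 to 1205 and 671 to 944, against 947 to 1735 and 1168 to 1477 in wild type hemisphere and vermis. All 7 oligodendrocyte markers fell in both regions. Of 3 plasmacytoid dendritic markers only Siglech, which microglia also carry, fell, with differences of -0.72 in the hemisphere and -0.80 in the vermis. The medians of these 3 were -0.04 and -0.26, and 1 of the hemisphere differences was above 0. All 8 differences of the granule neuron markers were below 0 in both regions, and 5 (hemisphere) and 6 (vermis) of them fell. Of 7 astroglial markers, hemisphere samples had 3 lower and 1 higher in SmoM2, and vermis samples 2 lower and 1 higher. Of 6 pericyte markers, hemisphere samples had 1 lower and vermis samples 2. In these mixed samples, fewer cells of a type and less RNA per cell cannot be told apart. The part that these markers have in any difference below was not tested.

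**Figure D1:**
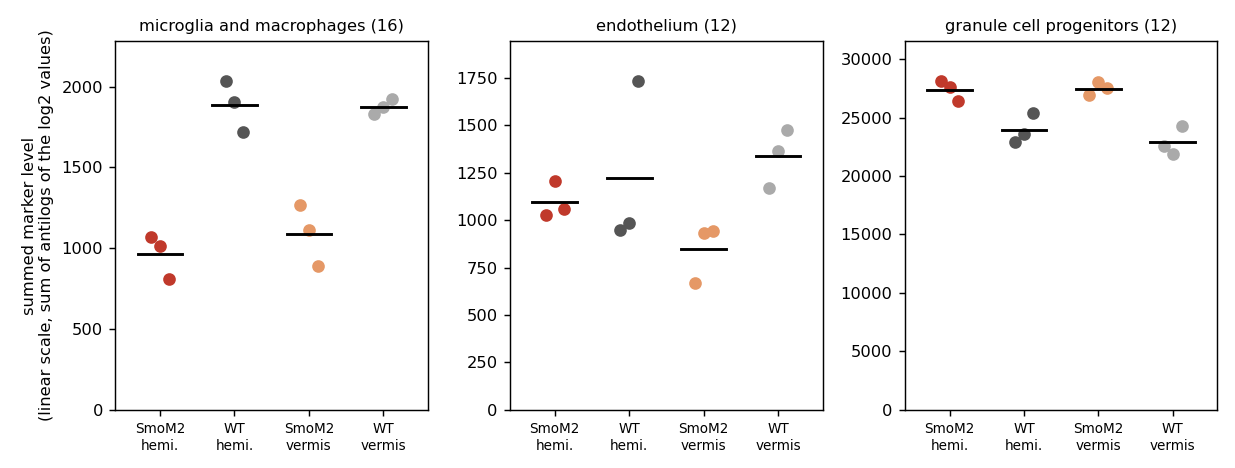
Summed marker level per array on the linear scale (antilog of the log2 values, in arbitrary intensity units) for microglia and macrophages (16 genes), endothelium (12) and granule cell progenitors (12); points are arrays, bars are group means. Microglial levels of the SmoM2 arrays, at most 1265, lie below those of all wild type arrays, at least 1718. The progenitor genes include the hedgehog targets Gli1 and Ptch1.

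Most members were dim. The mean of Ifit1 stood at percentile 9.65 of all probe set means, that of Usp18 at 14.7 and that of Ifit3 at 28.4. Stat2 stood at percentile 36.8 (its second probe set at 22.7), Irf7 at 41.0, Bst2 at 53.1, Irf9 at 60.8 and Oas1a at 65.7. These places depend on each probe set's own brightness and do not order the genes by RNA amount. Differences near the lowest values are compressed, and no detection call is part of the values, so whether Ifit1 and Usp18 were above background is not known.

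Of the 8 members, 1 passed the test in each region, and it was the same gene, Oas1a, which was lower with SmoM2. A member passed at an adjusted p under 0.05 in a linear model of all 18194 genes (limma, Benjamini-Hochberg). In the hemisphere 1 of 8 members fell and 0 rose, where 7.18% of all genes fell and 7.62% rose, 14.8% in all. In the vermis 1 of 8 fell and 0 rose, where 9.46% of all genes fell and 7.56% rose, 17% in all. The members' median difference was -0.11 in each region, beside -0.05 and -0.06 over all genes. At an unadjusted p under 0.05, 1 member was higher and 2 were lower in the hemisphere, where 30.9% of all genes lay, and 1 was higher and 1 lower in the vermis, where 33% lay. These counts are near the share of all genes and say nothing particular of the members.

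**Figure D2:**
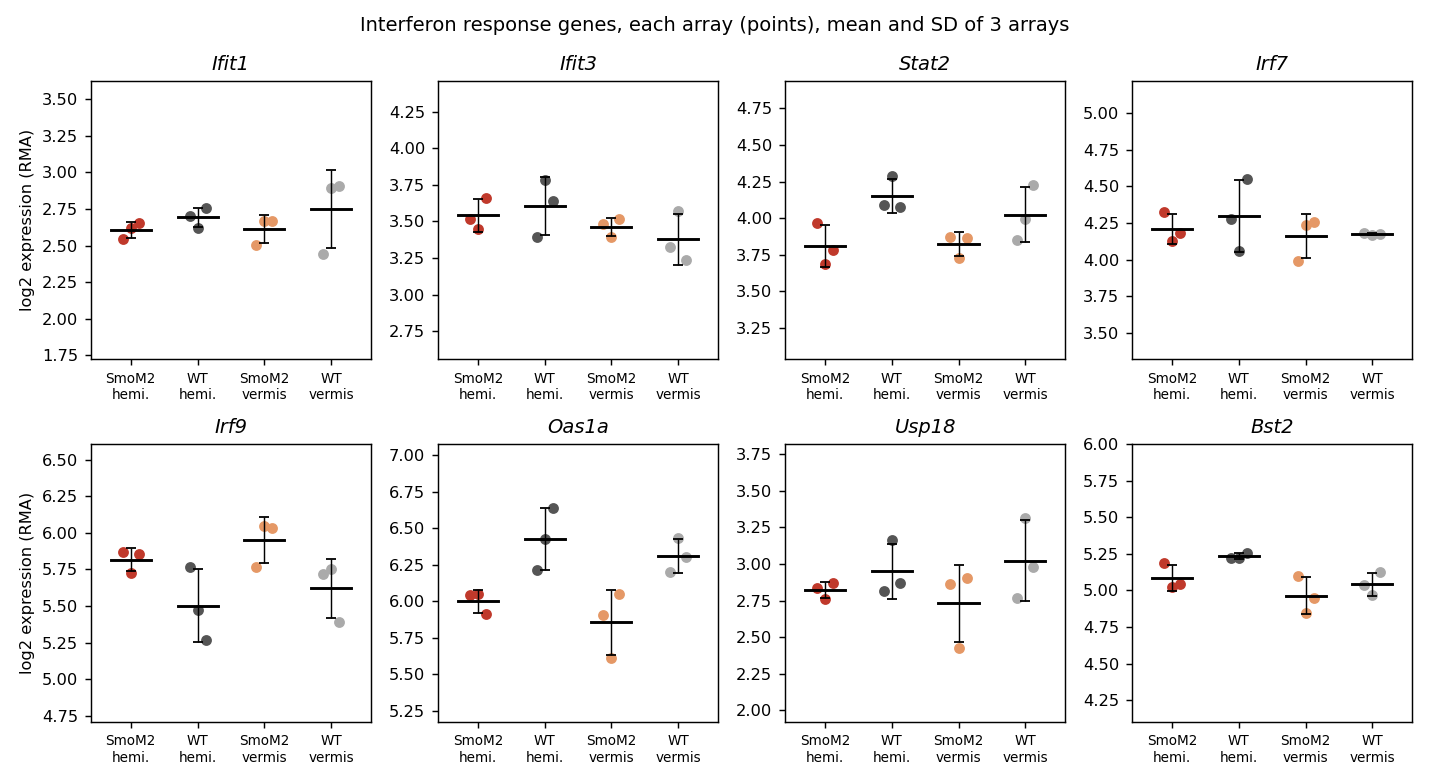
log2 value of each of the 8 members on each array (points), with group means (thick bars) and SD (thin bars), in SmoM2 hemisphere, wild type hemisphere, SmoM2 vermis and wild type vermis, 3 arrays each. Oas1a is at most 6.05 on the SmoM2 arrays and at least 6.20 on the wild type arrays, while the groups of Ifit1, Ifit3, Irf7 and Usp18 overlap in both regions.

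Among the signal transducers, Stat2 supplies the transactivation domain of ISGF3. It measured 3.96, 3.69 and 3.78 in SmoM2 hemisphere, against 4.09, 4.29 and 4.08 in wild type hemisphere. All 3 SmoM2 arrays lay below the wild type arrays, by 0.34 in the means (95% interval -0.60 to -0.09), which did not pass (limma, adjusted p = 0.0662). In the vermis Stat2 measured 3.87, 3.73 and 3.86 in SmoM2, against 3.85, 3.996 and 4.22 in wild type. These groups overlapped, with a difference of -0.20 (95% interval -0.45 to 0.05, adjusted p = 0.252 by limma). The second, dimmer Stat2 probe set differed by -0.07 in the hemisphere and -0.28 in the vermis, so the larger difference fell in the other region. Neither difference of that probe set passed (limma, adjusted p = 0.738 and 0.165).

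Irf9, the DNA-binding subunit of ISGF3, was the 1 member whose mean was higher with SmoM2 in both regions. It measured 5.87, 5.72 and 5.86 in SmoM2 hemisphere, against 5.77, 5.47 and 5.27 in wild type hemisphere. Wild type replicate 1 lay within the SmoM2 range, and the difference of 0.31 (95% interval 0.01 to 0.61) did not pass (limma, adjusted p = 0.142). Without that array the difference was 0.45 (limma, adjusted p = 0.0317), the 1 alternative in either region in which Irf9 passed. In the vermis Irf9 measured 5.77, 6.05 and 6.03 in SmoM2, against 5.72, 5.75 and 5.39 in wild type. The 3 SmoM2 arrays lay narrowly above the wild type arrays, and the difference of 0.33 (95% interval 0.03 to 0.63) did not pass (limma, adjusted p = 0.118). Stat2 and Irf9, partners in 1 complex, thus had differences of opposite sign in both regions, none of which passed.

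Irf7, the amplifying factor, showed no difference that passed. It measured 4.32, 4.12 and 4.18 in SmoM2 hemisphere, against 4.28, 4.06 and 4.55 in wild type hemisphere. In the vermis the values were 3.99, 4.24 and 4.26 in SmoM2, against 4.18, 4.17 and 4.17 in wild type. The groups overlapped in both regions, and the differences were -0.09 (95% interval -0.36 to 0.18) and -0.01 (95% interval -0.28 to 0.25).

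Among the effectors, Oas1a, a sensor enzyme of double-stranded RNA, was lower in SmoM2 in both regions. It measured 6.04, 6.05 and 5.91 in SmoM2 hemisphere, against 6.22, 6.42 and 6.64 in wild type hemisphere. The vermis values were 5.90, 5.61 and 6.05 in SmoM2, against 6.20, 6.43 and 6.30 in wild type. No SmoM2 array reached the lowest wild type array in either region. The means were 6.00 ± 0.08 in SmoM2 hemisphere and 5.86 ± 0.22 in SmoM2 vermis, against 6.43 ± 0.21 in wild type hemisphere and 6.31 ± 0.12 in wild type vermis (SD, n = 3 each). The fall in the hemisphere was -0.43 (SE 0.13, 95% interval -0.71 to -0.14, 1.34-fold, limma adjusted p = 0.0447), and that in the vermis -0.46 (SE 0.13, 95% interval -0.74 to -0.17, 1.37-fold, limma adjusted p = 0.0314). The summed microglial markers fell in the same arrays, and their part in the fall of Oas1a was not tested.

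Both Oas1a calls lie close to the threshold. In the hemisphere the call was lost without any 1 of SmoM2 hemisphere replicates 1, 2 or 3, SmoM2 vermis replicate 1, wild type hemisphere replicates 2 or 3 and wild type vermis replicate 3. The adjusted p then lay between 0.0546 and 0.156, and without wild type hemisphere replicate 3 the difference was -0.32. In the vermis it was lost without SmoM2 vermis replicates 1 or 2 or wild type vermis replicates 2 or 3, with an adjusted p of 0.0689 to 0.143 and a difference of -0.33 without SmoM2 vermis replicate 2. With the pool number as a random block, the hemisphere call was also lost (limma, adjusted p = 0.0540) and the vermis call was kept at 0.0378.

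Ifit1 lay near the floor of the arrays, at 2.55, 2.62 and 2.65 in SmoM2 hemisphere, against 2.70, 2.62 and 2.75 in wild type hemisphere. In the vermis it measured 2.50, 2.66 and 2.67 in SmoM2, against 2.44, 2.90 and 2.91 in wild type. The groups overlapped in both regions, with differences of -0.09 (95% interval -0.35 to 0.18) and -0.14 (95% interval -0.40 to 0.13). Its relative Ifit3 measured 3.51, 3.45 and 3.66 in SmoM2 hemisphere, against 3.39, 3.78 and 3.64 in wild type hemisphere. In the vermis Ifit3 measured 3.48, 3.39 and 3.51 in SmoM2, against 3.32, 3.57 and 3.24 in wild type. Its differences of -0.06 (95% interval -0.33 to 0.20) and 0.08 (95% interval -0.18 to 0.35) had opposite signs, and the groups overlapped in both regions.

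Bst2 measured 5.18, 5.03 and 5.04 in SmoM2 hemisphere, against 5.22, 5.22 and 5.26 in wild type hemisphere. The groups did not overlap, but the difference was only -0.15 (95% interval -0.36 to 0.06, limma adjusted p = 0.316). In the vermis Bst2 measured 5.10, 4.85 and 4.95 in SmoM2, against 5.04, 4.97 and 5.12 in wild type, and the groups overlapped around a difference of -0.08 (95% interval -0.29 to 0.13). Counting Stat2 and Oas1a, 3 of 8 members were thus separated and lower in the hemisphere, where 18.3% of all genes were (31.7% were separated either way). In the vermis only Oas1a was separated and lower, where 22.5% of all genes were, and Irf9 was separated and higher, where 39.8% were separated either way.

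Usp18, the negative regulator, measured 2.84, 2.76 and 2.87 in SmoM2 hemisphere, against 2.82, 3.16 and 2.87 in wild type hemisphere. The vermis values were 2.86, 2.43 and 2.90 in SmoM2, against 2.77, 3.32 and 2.98 in wild type. The arrays of wild type vermis were the most scattered, and the groups overlapped in both regions. The differences were -0.13 (95% interval -0.46 to 0.21) and -0.29 (95% interval -0.63 to 0.04), and neither passed (limma, adjusted p = 0.611 and 0.206).

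**Figure D3:**
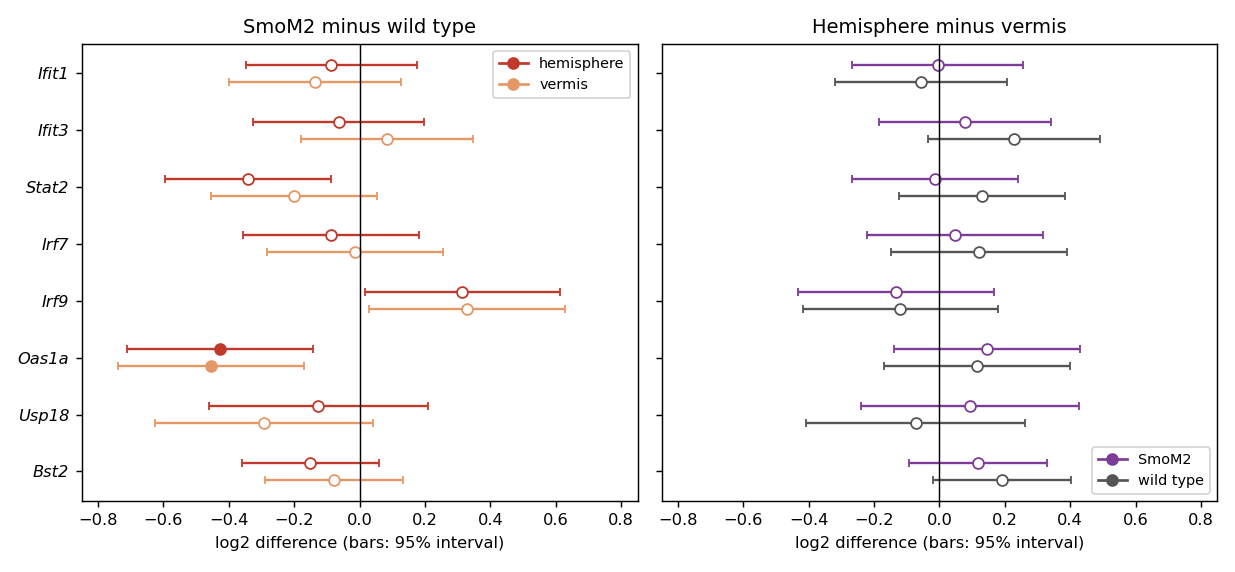
SmoM2 minus wild type log2 difference of each of the 8 members in the hemisphere and the vermis (left), and hemisphere minus vermis difference in SmoM2 and wild type (right), with 95% intervals from the model of all genes; filled points passed at an adjusted p under 0.05. Only Oas1a is filled, at -0.43 (hemisphere) and -0.46 (vermis), and the Irf9 points lie furthest to the right at 0.31 and 0.33.

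Region made no difference that passed. Between SmoM2 hemisphere and SmoM2 vermis, the 8 members differed by -0.13 (Irf9) to 0.15 (Oas1a), and 0 passed, where 0.0605% of all genes did. Between wild type hemisphere and wild type vermis they differed by -0.12 (Irf9) to 0.23 (Ifit3), and 0 passed, where 0.187% of all genes did. Bst2 was the 1 member whose wild type regions did not overlap, as those of 8.76% of all genes did not, at 5.22, 5.22 and 5.26 in the hemisphere, against 5.04, 4.97 and 5.12 in the vermis. That difference of 0.19 did not pass (limma, adjusted p = 0.844). The SmoM2 effect in the hemisphere minus that in the vermis ran from -0.15 (Ifit3) to 0.17 (Usp18), 0 members passed, and 0% of all genes did. At an unadjusted p under 0.05 the number of members by limma was also 0 in each of these 3 comparisons, where 3.63%, 6.32% and 3.1% of all genes lay. Such p-values do not show that the regions are alike.

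Pairs of members varied together to different degrees. After subtraction of group means, the 28 pairs of members correlated over the 12 arrays at -0.52 (Irf9 and Bst2) to 0.73 (Ifit3 and Usp18), with a median of 0.11 and 16 pairs above 0. The genes most like the mean of the standardised members over the 12 arrays were Gm31437 (r = 0.963), B930059L03Rik (0.952), Asb5 (0.946), Retn (0.946), Prss36 (0.945), Treml2 (0.934), Abi3 (0.933) and Mirg (0.913). None of these was on the pathway lists below. These arrays share normalization and RNA preparation, and the best of 18186 genes are high by selection. Of the pathway genes, Ifna1 (0.859, rank 58) and Ccl5 (0.812, rank 149) came closest, and the median of the pathway genes was 0.07, beside -0.05 for all genes.

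The wider pathway was read from 7 lists with 143 genes, of which 121 were measured. In the hemisphere 3 of 121 rose and 9 fell, where 7.62% and 7.18% of all genes did, and in the vermis 3 rose and 12 fell, where 7.56% and 9.46% did. The median difference was -0.09 for the hemisphere and -0.12 for the vermis. The share that fell is near that of all genes, and the share that rose is below it, a difference that was not tested. In the region comparisons and the interaction 0 of 121 passed. The counts rest on single arrays: without wild type hemisphere replicate 1, 8 rose and 21 fell in the hemisphere, and without either SmoM2 vermis replicate 1 or wild type vermis replicate 2, 3 fell in the vermis. Fewer also fell in the vermis without SmoM2 vermis replicate 2 or 3 (7 each) or wild type vermis replicate 3 (4). In the hemisphere 1 rose without SmoM2 hemisphere replicate 1 or 3 or wild type hemisphere replicate 3. In the vermis 1 rose without SmoM2 vermis replicate 2 or wild type vermis replicate 3, and 5 rose without wild type hemisphere replicate 1. Calls over all genes moved as well when 1 array was left out. They numbered 1633 to 4276 in the hemisphere (2694 with every array) and 1756 to 3827 in the vermis (3096 with every array). Whether the pathway counts moved more than those of all genes was not tested.

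**Figure D4:**
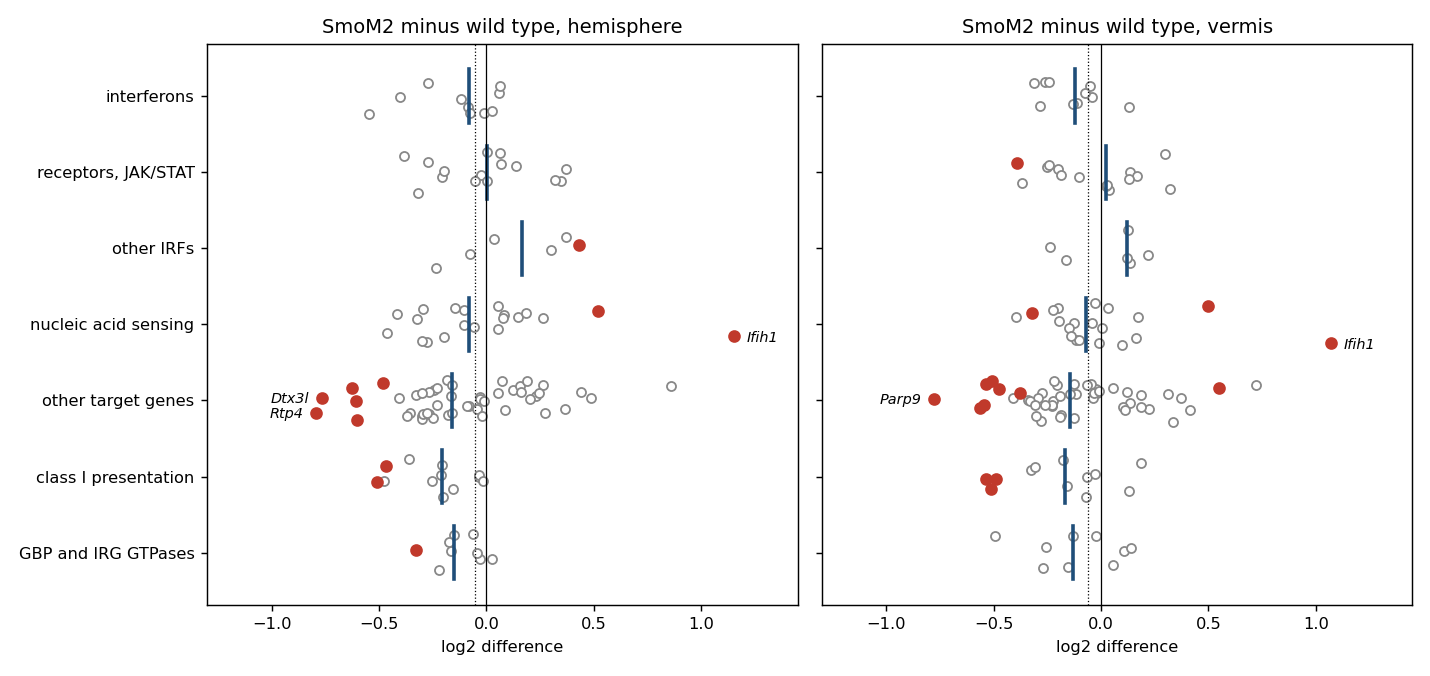
SmoM2 minus wild type log2 difference of the 121 measured pathway genes by list, in the hemisphere and the vermis; filled points passed at an adjusted p under 0.05, thick bars are list medians and the dotted line is the median of all genes. Ifih1 lies alone on the right at 1.15 and 1.07, and the filled points of the other target genes lie on the left, apart from 1 gene in the vermis.

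The interferons themselves were dim, as 10 measured of 19 listed. Their values ran from 2.19 to 5.34, the means of 4 of 10 lay below the lower quartile of probe set means, and 0 passed in either region. By limma, 2 in the hemisphere and 1 in the vermis had an unadjusted p under 0.05, all lower in SmoM2. The smallest p belonged to Ifna1, an interferon alpha, at -0.55 in the hemisphere and -0.26 in the vermis (limma, adjusted p = 0.111 and 0.434). Ifnab, another alpha family gene, differed by -0.40 and -0.11 (limma, adjusted p = 0.121 and 0.667). Leaving out wild type hemisphere replicate 1, both hemisphere differences passed, at -0.71 for Ifna1 and -0.62 for Ifnab (limma, adjusted p = 0.0397 and 0.00802). Without wild type hemisphere replicate 2 the Ifnab difference was -0.19, and with array quality weights it was -0.53 and passed (limma, adjusted p = 0.0386). Alpha interferon genes are near copies of each other, and both probe sets are of the kind whose probes may bind related transcripts, so these values are uncertain.

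Of 15 receptor and JAK/STAT genes, 1 passed, Il10rb, a chain shared by the receptors of interferon lambda and interleukin 10. It measured 4.54, 4.50 and 4.65 in SmoM2 vermis, against 4.93, 5.11 and 4.83 in wild type vermis, a fall of -0.39 (limma, adjusted p = 0.0282). The call was lost without SmoM2 vermis replicate 1 or 2 or wild type vermis replicate 2 (adjusted p 0.0853 to 0.116), and in the hemisphere the difference was 0.06. The vermis call was also lost in 3 of 10 other settings (limma, adjusted p 0.0504 to 0.0555). Of 6 other interferon regulatory factors, Irf1, an early factor induced by interferon gamma, was the 1 that rose. It measured 7.74, 7.60 and 7.83 in SmoM2 hemisphere, against 7.31, 7.36 and 7.21 in wild type hemisphere. The difference was 0.43 (limma, adjusted p = 0.0243), lost without SmoM2 hemisphere replicate 1 or 3 or wild type hemisphere replicate 3 (adjusted p 0.0731 to 0.0987), and it was 0.14 in the vermis, where it did not pass. Quantile normalization again also ended the hemisphere call (difference 0.32, limma, adjusted p = 0.103).

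Nucleic acid sensors held the largest rise of the 121 genes. Ifih1 (MDA5) detects long double-stranded RNA in the cytoplasm and starts interferon production. It measured 5.39, 5.58 and 5.76 in SmoM2 hemisphere, against 4.60, 4.18 and 4.50 in wild type hemisphere. In the vermis it measured 5.50, 5.36 and 5.30 in SmoM2, against 4.67, 4.12 and 4.15 in wild type. Every SmoM2 array exceeded every wild type array in both regions. The rise was 1.15 in the hemisphere (SE 0.16, 2.22-fold) and 1.07 in the vermis (limma, adjusted p = 0.000193 and 0.000325), from 1 probe set, and it passed in all 22 alternatives in each region. The summed microglial markers were lower in the same SmoM2 arrays, and their part in the Ifih1 difference was not tested.

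Samhd1, which hydrolyses deoxynucleotides and limits retroviral replication, also rose in both regions by its brightest probe set. It measured 7.09, 7.16 and 6.98 in SmoM2 hemisphere, against 6.84, 6.54 and 6.29 in wild type hemisphere, and 7.06, 6.95 and 6.90 in SmoM2 vermis, against 6.76, 6.32 and 6.34 in wild type vermis. The differences were 0.52 and 0.50 (limma, adjusted p = 0.0290 and 0.0326). Its 5 probe sets disagreed, and their mean differed by 0.09 and 0.20, which did not pass (limma, adjusted p = 0.447 and 0.0878). The calls were also lost without any 1 of the SmoM2 replicates of the region or without wild type replicate 2 or 3 of the region, with an adjusted p of 0.0537 to 0.110 in the hemisphere and 0.0554 to 0.122 in the vermis. Of 11 other settings, 3 ended the hemisphere call and 2 the vermis call, the probe set mean among them. Myd88, an adaptor of Toll-like receptors, fell in the vermis by 0.32 (limma, adjusted p = 0.0395), a call lost without any of 8 arrays (any SmoM2 array, wild type vermis replicates 2 or 3, adjusted p 0.0501 to 0.147), and in the hemisphere it differed by 0.15. The Myd88 call was also lost in 4 of 10 other settings (limma, adjusted p 0.0561 to 0.1055).

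Of 49 other target genes, 6 fell and 0 rose in the hemisphere, where 7.18% of all genes fell and 7.62% rose. In the vermis 7 fell and 1 rose, where 9.46% of all genes fell and 7.56% rose. The list medians were -0.16 in the hemisphere and -0.14 for the vermis. Parp9 and Dtx3l, partners in an ADP-ribosylation and ubiquitin ligase complex whose human genes share a promoter, both fell in both regions. Parp9 measured 5.54, 5.83 and 5.84 in SmoM2 hemisphere, against 6.48, 6.22 and 6.32 in wild type hemisphere. The vermis values were 5.71, 5.88 and 5.63 in SmoM2, against 6.42, 6.65 and 6.48 in wild type. No array of one genotype reached the other, the differences were -0.60 and -0.78 (limma, adjusted p = 0.00328 and 0.000448), and they passed in all 23 alternatives in each region.

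Dtx3l measured 5.52, 5.74 and 5.81 in SmoM2 hemisphere, against 6.60, 6.41 and 6.37 in wild type hemisphere. In the vermis it measured 5.77, 5.79 and 5.85 in SmoM2, against 6.24, 6.23 and 6.38 in wild type. The groups were apart in both regions, by -0.77 and -0.48 (limma, adjusted p = 0.000227 and 0.00757). The mean of its 2 probe sets differed by -0.32 in the vermis, which did not pass (limma, adjusted p = 0.0558). Ifitm1, a membrane protein that restricts viral entry, fell as well. It measured 5.77, 5.88 and 5.77 in SmoM2 hemisphere, against 6.07, 6.31 and 6.50 in wild type hemisphere, and 5.69, 6.01 and 5.57 in SmoM2 vermis, against 6.18, 6.34 and 6.29 in wild type vermis. Its differences of -0.48 and -0.51 passed (limma, adjusted p = 0.0247 and 0.0175). The hemisphere call was lost without SmoM2 hemisphere replicate 1 or 3 or wild type hemisphere replicate 2 or 3 (adjusted p 0.0674 to 0.0932), and the vermis call without SmoM2 vermis replicate 1 or 3 or wild type vermis replicate 2 or 3 (adjusted p 0.0534 to 0.0727). With no moderation the hemisphere call was also lost (limma, adjusted p = 0.0606).

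Other target genes passed in 1 region, and for none of them did the regions differ by the interaction test. Rtp4, a receptor transporter protein induced by interferon, measured 3.09, 3.24 and 3.18 in SmoM2 hemisphere, against 4.05, 3.75 and 4.09 in wild type hemisphere. It fell by 0.79 there (limma, adjusted p = 0.00171), and its second probe set differed by 0.05, while the mean of both was -0.37 and still passed (limma, adjusted p = 0.0176). Slfn5, of the Schlafen family, measured 3.57, 3.37 and 3.25 in SmoM2 hemisphere, against 3.86, 4.13 and 4.01 in wild type hemisphere. It fell by 0.60 (limma, adjusted p = 0.00885), while the mean of its 3 probe sets differed by -0.17 (limma, adjusted p = 0.282). Both are dim genes whose probe sets disagree. Nmi, a partner of STAT proteins, measured 5.90, 6.57 and 6.54 in SmoM2 hemisphere, against 7.19, 6.92 and 6.77 in wild type hemisphere. It fell by 0.62 (limma, adjusted p = 0.0317), a call lost without SmoM2 hemisphere replicate 1 (difference -0.40, adjusted p = 0.134) or wild type hemisphere replicate 1 or 2. Of 11 other settings, 2 also ended the Nmi call (limma, adjusted p 0.0669 to 0.101).

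In the vermis, 2 relatives of Oas1a fell. Oas2 measured 4.39, 4.20 and 4.37 in SmoM2 vermis, against 4.56, 4.96 and 5.14 in wild type vermis, a difference of -0.57 (limma, adjusted p = 0.0336). Oas3 measured 2.94, 3.16 and 3.29, against 3.33, 3.56 and 3.63 in wild type vermis, a difference of -0.38 (limma, adjusted p = 0.0452). In the hemisphere they differed by -0.25 and -0.29, without passing. The Oas2 call was lost without any SmoM2 vermis replicate or wild type vermis replicate 2 or 3 (adjusted p 0.0631 to 0.135), and that of Oas3 without any SmoM2 hemisphere replicate, SmoM2 vermis replicate 1 or 2 or wild type vermis replicate 2 or 3 (adjusted p 0.0580 to 0.185). Of 10 other settings, 1 ended the Oas2 call (limma, adjusted p = 0.0970) and 5 that of Oas3 (0.0595 to 0.117).

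Trim30a, an interferon-induced TRIM protein, and Ccl5, a chemokine that attracts leukocytes, also fell in the vermis. Trim30a measured 3.26, 3.50 and 3.47 in SmoM2 vermis, against 3.76, 4.08 and 4.0 in wild type vermis, and fell by 0.54 (limma, adjusted p = 0.0178). Its second probe set differed by 0.12 there, and the mean of both by -0.21, which did not pass (limma, adjusted p = 0.151). The call was also lost without SmoM2 vermis replicate 1 or wild type vermis replicate 2 or 3 (adjusted p 0.0601 to 0.0797), and with no moderation (limma, adjusted p = 0.0537). Ccl5 fell by 0.55 (limma, adjusted p = 0.0470), a call lost without SmoM2 hemisphere replicate 3, any SmoM2 vermis replicate or wild type vermis replicate 2 or 3 (adjusted p 0.0506 to 0.197). The Ccl5 call was also lost in 4 of 10 other settings (limma, adjusted p 0.0583 to 0.122). Helz2, a helicase and nuclear receptor coactivator, was the 1 that rose in the vermis, at 4.17, 4.49 and 4.13 in SmoM2, against 3.93, 3.82 and 3.39 in wild type. The difference of 0.55 (limma, adjusted p = 0.0177) did not pass without SmoM2 vermis replicate 2 or wild type vermis replicate 3 (adjusted p 0.0878 and 0.0778). With no moderation it did not pass either (limma, adjusted p = 0.0559).

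Of 12 class I antigen presentation genes, 2 fell and 0 rose in the hemisphere (7.18% of all genes fell), where 0 of 12 differences were above 0. In the vermis 3 fell and 0 rose (9.46% of all genes fell), and 2 of 12 differences were above 0. The medians were -0.21 and -0.17, beside -0.05 and -0.06 over all genes. Psmb9, a catalytic subunit of the immunoproteasome, measured 4.67, 4.76 and 4.81 in SmoM2 hemisphere, against 5.37, 5.06 and 5.22 in wild type hemisphere. The vermis values were 4.67, 4.68 and 4.82 in SmoM2, against 5.26, 5.23 and 5.14 in wild type. The groups were apart in both regions, the differences were -0.47 and -0.49 (limma, adjusted p = 0.00737 and 0.00541), and they passed in all 22 alternatives in each region. Microglia express this machinery, and the microglial marker sum fell in the same arrays. Its part in these falls was not tested.

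Tap1, which carries peptides into the endoplasmic reticulum, measured 4.80, 4.48 and 4.96 in SmoM2 hemisphere, against 5.11, 5.26 and 5.41 in wild type hemisphere. It fell by 0.51 (limma, adjusted p = 0.0169), a call lost without SmoM2 hemisphere replicate 2 or wild type hemisphere replicate 3 (adjusted p 0.0736 and 0.0644). The mean of its 4 probe sets differed by -0.10 (limma, adjusted p = 0.471). Of 10 other settings, 2 ended the Tap1 call, that mean among them. Psmb8, another immunoproteasome subunit, fell by 0.53 in the vermis (limma, adjusted p = 0.0289), a call lost without SmoM2 vermis replicate 1 or 3 or wild type vermis replicate 2 or 3 (adjusted p 0.0711 to 0.124). The mean of its 2 probe sets differed by -0.33 (limma, adjusted p = 0.0658). Of 10 other settings, 3 ended the Psmb8 call, that mean among them. Tapbp, which docks class I molecules to the transporter, fell by 0.51 in the vermis (limma, adjusted p = 0.0456), a call lost without any 1 of the 9 arrays outside wild type hemisphere (adjusted p 0.0519 to 0.152). Of 11 other settings, 4 ended the Tapbp call (limma, adjusted p 0.0606 to 0.113). Of 9 interferon-inducible GTPases, Iigp1, which acts on parasite vacuoles, was the 1 that fell, by 0.33 in the hemisphere (limma, adjusted p = 0.0468). Its second probe set differed by 0.06, and the mean of both by -0.14, which did not pass (limma, adjusted p = 0.306). The call was also lost without any 1 of 9 arrays, the exceptions being SmoM2 hemisphere replicate 2, wild type hemisphere replicate 1 and wild type vermis replicate 1 (adjusted p 0.0556 to 0.163). Of 10 other settings, 6 ended the Iigp1 call, the mean of both probe sets among them. In the other region, Tap1 (vermis) and Psmb8 (hemisphere) each differed by -0.16, Tapbp (hemisphere) by -0.48 and Iigp1 (vermis) by -0.25. These did not pass (limma, adjusted p = 0.406, 0.512, 0.0637 and 0.106), though the groups of Tapbp and Iigp1 did not overlap there. For none of these genes did the regions differ by the interaction test.

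**Figure D5:**
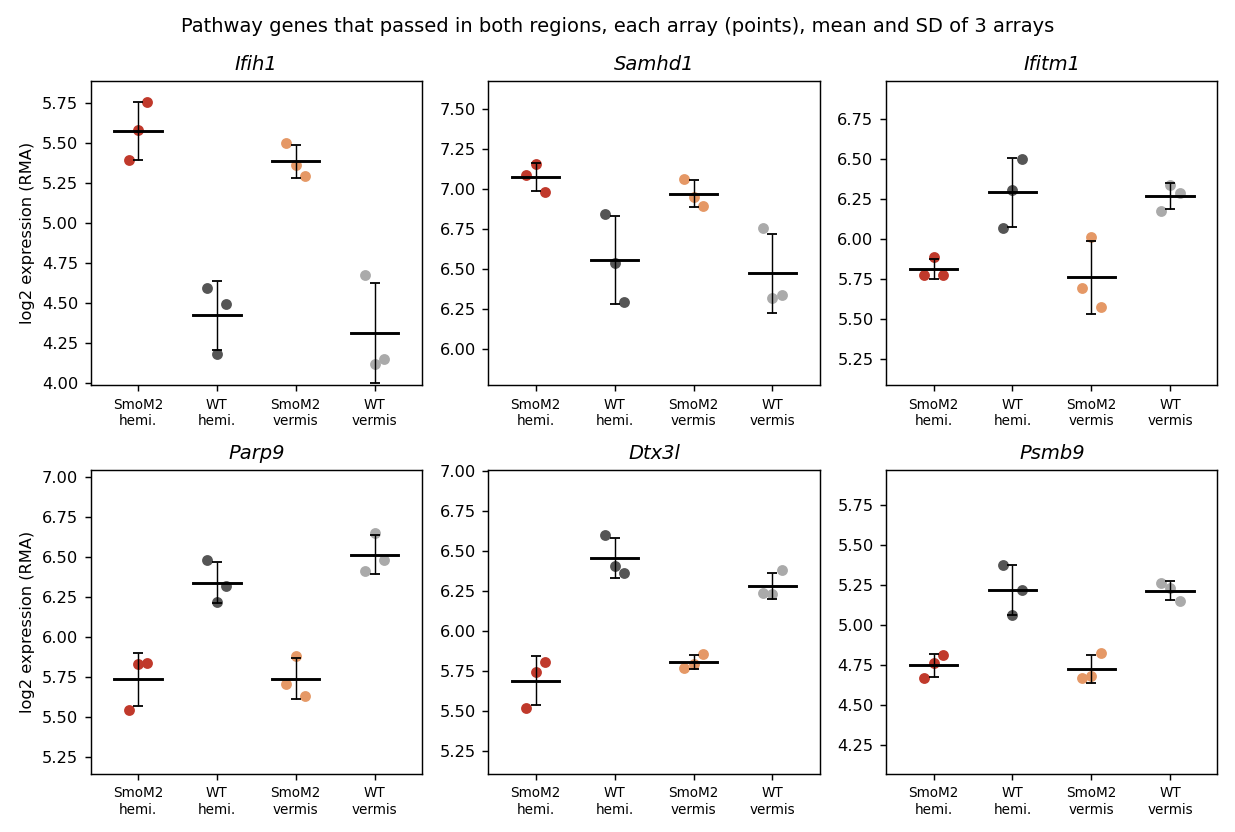
log2 values by array of the 6 pathway genes that passed in both regions, SmoM2 left of wild type in each region, with group means as thick bars and SD as thin bars (3 arrays each). Ifih1 and Samhd1 are higher in SmoM2, and Parp9, Dtx3l, Psmb9 and Ifitm1 are lower.

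Of the 121 pathway genes, 6 passed in both regions, 2 higher and 4 lower in SmoM2. The share of all genes that passed in both regions was not counted, so this number is only a description. Promoters of 15 of the 21 pathway genes that passed in either region were in the RefSeq table, and 5 of 15 held the ISRE core and 4 of 15 the GAS core. The core of Ifih1 lies just after its start. Parp9 and Rtp4 were not in the table, and no match was found in Dtx3l or Psmb9.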

How the data were processed

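RNA of 12 pools was hybridised to Affymetrix GeneChip mouse genome arrays, per the labels. The deposited table holds log2 intensities per probe set, which the authors made with Partek and RMA, per the submitters' processing notes. RMA corrects background, normalizes by quantiles and summarises probes. The sources used here give no version. All 12 value columns were used, and values were not normalized again. Gene symbols came from the platform's annotation (34958 with 1 symbol, 932 with several, 9211 with none), and the brightest by mean was kept for each of 18194 genes. Precision is limited by having 3 arrays a group, and the median SD within groups was 0.16.

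The test was limma 3.58.1, run in R 4.3.3 with lmFit and eBayes (1 mean for each of 4 groups, 8 residual and 6.02 prior degrees of freedom), two-sided, with Benjamini-Hochberg adjustment over the 18194 genes of each of 5 comparisons and a threshold of 0.05. The code was tested on simulated data. Alternatives were each array left out in turn, the mean of all probe sets, every probe set tested, renormalization or recentring, other moderation, array weights, a level filter, only the groups compared, and replicate number as a fixed or random block. The check of replicate numbers correlated deviations from group means: same-numbered hemisphere and vermis arrays correlated at 0.142 to 0.275 in SmoM2 and at 0.337 to 0.527 in wild type, each best with its own number, so the numbers pair the arrays within a genotype; between genotypes r ran from -0.224 to 0.277, and they do not.

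The members and gene lists were chosen with earlier results of these data known. Named pathway genes were up to 4 per list and comparison with the largest difference among those that passed, or the 2 smallest p. Oas3, Ifitm1, Trim30a and Slfn5 passed beyond that number and were named after their values were seen. Promoters are from RefSeq.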

Additional observations from a re-analysis of the deposited data

How the results depend on the processing

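The 8 members were recomputed in 23 alternatives, 12 that leave out an array and 11 others, and no called difference changed sign. Of 877 recomputed member values, 857 stayed on the same side of the threshold, 18 lost a call and 2 gained one. Uncalled differences could change sign, as that of Ifit3 in the hemisphere did (-0.17 to 0.03). Only Oas1a had calls to lose. They were lost in 7 of 12 array omissions and 6 of 11 other settings in the hemisphere, and in 4 and 1 in the vermis. Of 2542 values for the pathway genes named above, 2405 stayed on the same side, 128 lost a call and 9 gained one. These totals include differences that had no call. The number of members that passed in the hemisphere was 1. It was 0 with every probe set tested (Oas1a adjusted p = 0.0581), arrays centred on their medians (0.0524), trended and robust moderation (0.0575), no moderation (0.0905), only the groups compared (0.0744) and the random replicate block (0.0540), 2 with array quality weights, where Stat2 passed (0.0452), and 0 to 2 without 1 array. In the vermis it was 1, and 0 with no moderation (Oas1a 0.0708) and 0 to 1 without 1 array. Pathway genes that rose in the hemisphere numbered 3, and 5 with array quality weights (1 to 8 without 1 array), and those that fell 9 (6 to 21 without 1 array). In the vermis 3 rose, and 5 with median centring, 1 with no moderation, 6 with array quality weights and 5 with the fixed replicate block (1 to 5 without 1 array). There 12 fell, and 7 with median centring, 7 with no moderation, 19 with array quality weights and 4 among genes at or above the median level (3 to 17 without 1 array). The replicate block, fixed or random, changed no member call in the comparisons of regions, where the numbers pair the arrays, and the fixed block kept both Oas1a calls (0.0432 and 0.0305). Over all genes, 2694 passed in the hemisphere and 1633 to 4276 without 1 array, and 3096 in the vermis and 1756 to 3827 without 1 array. Between regions the numbers were 11 (2 to 18 without 1 array) in SmoM2 and 34 (8 to 58) in wild type. Over all alternatives they ran from 1 to 42 in SmoM2 and from 3 to 198 in wild type, so the background shares move too. Members at the lowest percentiles, Ifit1 and Usp18, have no known distance from background, and the cause of these changes was not tested.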

Other observations

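Pml, the scaffold of nuclear bodies, had the largest upward difference among pathway genes that did not pass, and is named after its value was seen. It was 0.86 higher in SmoM2 hemisphere and 0.72 higher in SmoM2 vermis than in wild type (limma, adjusted p = 0.0570 and 0.0954). Cmpk2, a mitochondrial nucleotide kinase induced by interferon, differed by 0.44 and 0.41 (limma, adjusted p = 0.104 and 0.114), and was chosen in the same way. Ifit2, a relative of Ifit1 and Ifit3, differed by 0.49 and 0.37 (limma, adjusted p = 0.398 and 0.508). None of these 3 passed in either region.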
